A study of Mus musculus with 8 samples.

Results

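MMERVK10 and RLTR10 are mouse endogenous retroviruses of the ERVK class that are counted here as 13 transposable element subfamilies, out of 1153 subfamilies and 25215 counted features in all. They were chosen by a rule on annotation, as the subfamilies of family ERVK whose names begin with MMERVK10 or RLTR10. Earlier results of these data were known when this choice was made. Together they make up 13 of the 285 ERVK subfamilies. Of these, 3 are internal regions (MMERVK10C-int, MMERVK10D3_I-int and RLTR10-int) and 10 are long terminal repeats, LTRs (MMERVK10D3_LTR, RLTR10, RLTR10A, RLTR10B, RLTR10B2, RLTR10C, RLTR10D, RLTR10D2, RLTR10E and RLTR10F).

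An endogenous retrovirus entered the germline as a provirus, in which an LTR at each end flanks an internal region with the viral genes. The LTR holds the promoter and the polyadenylation signal, and recombination between both LTRs leaves a solitary LTR that has lost the internal region. RLTR10C is the LTR type that flanks MMERVK10C proviruses. In mouse embryonic stem cells (mESCs), ERVK elements are silenced by SETDB1, a histone H3 lysine 9 methyltransferase that is recruited through TRIM28 and KRAB zinc finger proteins and deposits H3K9me3, whereas G9a and GLP deposit mainly H3K9me2.

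Poly(A) RNA was sequenced from 4 conditions of mESCs, with 2 biological replicates each. All of them came from line #33-6, a single Setdb1 conditional knockout line, so that WT mESCs also carry the conditional allele, and all were grown with LIF on gelatin. WT mESCs received no treatment, UNC0642-treated mESCs received 2 µM UNC0642, an inhibitor of the catalytic activity of G9a and GLP, for 3 days, and Setdb1 KO mESCs received 800 nM 4-OHT, which activates the recombinase that deletes Setdb1, for 5 days. UNC0642-treated Setdb1 KO mESCs were labelled as having received 800 nM 4-OHT for 2 days and then 2 µM UNC0642 for 3 days, while the methods of the study give 5 days of 4-OHT for Setdb1 deletion. No vehicle is named for untreated cells, so that 4-OHT itself cannot be told apart from Setdb1 deletion.

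The libraries held between 11702590 and 26807807 counts, and 3 counts, taken as the detection floor, were worth between 0.112 and 0.256 counts per 1e6 counts (CPM). Setdb1 was at 169 and 127 CPM in WT, 130 and 86.3 in UNC0642-treated, 47.3 and 51.0 in Setdb1 KO and 61.1 and 34.1 in Setdb1 KO mESCs with UNC0642. Thus all 4 libraries with Setdb1 deleted were below the other 4. The log2 fold changes over WT of -1.59 ± 0.44 (SE) in Setdb1 KO and -1.64 ± 0.44 in UNC0642-treated Setdb1 KO mESCs did not pass the edgeR test (adjusted p = 0.181 and 0.0746), but did with the replicate number as a block (adjusted p = 0.0164 and 0.00593). This count covers the whole gene, including exons outside the deleted part. All 9 mESC markers were tested and none differed from WT in any condition at an unadjusted p under 0.05.

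Each subfamily was compared between conditions by edgeR's quasi-likelihood test on counts, in 1 fit of all 8 libraries and of all 16245 genes and subfamilies with enough counts, and p-values were adjusted by Benjamini-Hochberg over all of these. A subfamily was taken as changed where its fold change exceeded 2 and its adjusted p was under 0.05. All 13 MMERVK10 and RLTR10 subfamilies had enough counts to be tested. Levels are given as CPM scaled by TMM factors. They are not divided by the genomic length of a subfamily, which was not used here, so levels of different subfamilies were not ranked.

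MMERVK10C-int, the internal region of MMERVK10C, was far higher where Setdb1 was deleted. It was at 67.5 and 39.8 CPM in WT mESCs and at 5652 and 8834 CPM in Setdb1 KO mESCs. The groups were far apart and the difference was a log2 fold change of 7.08 ± 0.78 (SE, 2 libraries per condition), or 135-fold, with an adjusted p of 0.00613. By the size of this change it was number 2 of the 932 subfamilies tested. With both treatments it was at 8591 and 5192 CPM, a log2 fold change over WT of 7.01 ± 0.78 (adjusted p = 0.00358). In bulk RNA, more cells with an active element and more RNA per cell cannot be told apart.

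MMERVK10D3_I-int, the internal region of MMERVK10D3, was at 7.31 and 6.38 CPM in WT, at 146 and 134 in Setdb1 KO and at 417 and 257 in Setdb1 KO mESCs with UNC0642. Both conditions lay above WT without overlap, and both UNC0642-treated Setdb1 KO libraries also lay above both Setdb1 KO libraries. The log2 fold change over WT was 4.35 ± 0.46 in Setdb1 KO mESCs (adjusted p = 0.00566) and 5.62 ± 0.48 in UNC0642-treated Setdb1 KO mESCs (adjusted p = 0.00176).

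RLTR10-int, the internal region annotated with the RLTR10 LTRs, was at 34.6 and 24.3 CPM in WT, at 322 and 189 in Setdb1 KO and at 722 and 276 in Setdb1 KO mESCs with UNC0642. It rose by 3.12 ± 0.57 (adjusted p = 0.0373) upon Setdb1 deletion and by 4.09 ± 0.60 (adjusted p = 0.00781) with both treatments, on the log2 scale. Replicate 1 was the higher library in each of the 4 conditions, by 0.19 to 1.39 on the log2 scale. All 3 internal regions therefore rose in both conditions with Setdb1 deleted.

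Among the LTRs, RLTR10C had the largest change in Setdb1 KO mESCs in this fit. It was at 4.00 and 4.11 CPM in WT, at 92.0 and 148 in Setdb1 KO and at 140 and 110 in Setdb1 KO mESCs with UNC0642. The WT libraries differed little from each other, and the log2 fold changes over WT were 4.88 ± 0.46 (adjusted p = 0.00283) and 4.94 ± 0.46 (adjusted p = 0.00179).

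RLTR10D2 was at 0.522 and 0.866 CPM in WT, at 12.7 and 17.3 in Setdb1 KO and at 35.9 and 38.5 in Setdb1 KO mESCs with UNC0642. Its changes over WT were 4.38 ± 0.73 (adjusted p = 0.0291) and 5.69 ± 0.77 (adjusted p = 0.00682) on the log2 scale, with 6 and 24 counts behind the WT level. RLTR10B2 was at 1.22 and 1.19 CPM in WT, 16.0 and 20.2 in Setdb1 KO and 40.4 and 29.0 in Setdb1 KO mESCs with UNC0642, with changes of 3.90 ± 0.51 (adjusted p = 0.0113) and 4.84 ± 0.53 (adjusted p = 0.00334). RLTR10A was at 2.61 and 1.98 CPM in WT, 24.8 and 16.9 in Setdb1 KO and 35.7 and 32.0 in Setdb1 KO mESCs with UNC0642, with changes of 3.19 ± 0.50 (adjusted p = 0.0204) and 3.89 ± 0.51 (adjusted p = 0.00590). In these 3 LTRs, as in MMERVK10D3_I-int, both libraries with both treatments lay above both Setdb1 KO libraries.

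RLTR10 had the closest call of the LTRs. It was at 9.84 and 7.79 CPM in WT, 59.7 and 26.7 in Setdb1 KO and 77.1 and 29.8 in Setdb1 KO mESCs with UNC0642, with the replicates of both KO conditions more than 2-fold apart. Its log2 fold changes over WT of 2.30 ± 0.61 and 2.60 ± 0.62 missed the threshold (adjusted p = 0.158 and 0.0501). With the replicate block they passed it (adjusted p = 0.00680 and 0.00216).

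RLTR10B was at 1.39 and 0.866 CPM in WT, 6.22 and 6.00 in Setdb1 KO and 8.51 and 6.73 in Setdb1 KO mESCs with UNC0642. RLTR10E was at 1.74 and 1.05, 5.59 and 6.27, and 13.2 and 6.17 CPM in the same order. RLTR10D was at 4.18 and 2.89, 9.86 and 8.64, and 19.5 and 16.1 CPM. These 3 LTRs rose in UNC0642-treated Setdb1 KO mESCs, by 2.77 ± 0.59 (adjusted p = 0.0327), 2.80 ± 0.63 (adjusted p = 0.0417) and 2.34 ± 0.53 (adjusted p = 0.0443) on the log2 scale. Upon Setdb1 deletion alone their values of 2.45 ± 0.58, 2.105 ± 0.62 and 1.39 ± 0.52 did not pass (adjusted p = 0.105, 0.214 and 0.401), while RLTR10B and RLTR10E passed with the block (adjusted p = 0.0154 and 0.0405).

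The remaining LTRs were scarce in WT. MMERVK10D3_LTR had 3 and 6 counts in the WT libraries, and was at 1.48 and 0.880 CPM in Setdb1 KO and 2.91 and 2.39 CPM in Setdb1 KO mESCs with UNC0642. The ratio of its summed counts to WT was 5.31 (95% interval 2.59 to 12.3) and 10.997 (5.55 to 24.8), exact intervals that cover counting error only. It rose in UNC0642-treated Setdb1 KO mESCs (log2 fold change 3.46 ± 0.77, adjusted p = 0.0399) and did not pass in Setdb1 KO mESCs (2.31 ± 0.75, adjusted p = 0.292). RLTR10F was at 0.348 and 0.974 CPM in WT, 2.62 and 3.96 in Setdb1 KO and 7.16 and 4.41 in Setdb1 KO mESCs with UNC0642, and passed in neither (2.24 ± 0.71, adjusted p = 0.264, and 3.05 ± 0.72, adjusted p = 0.0508). The second of these passed with the block (adjusted p = 0.0107).

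**Figure D1:**
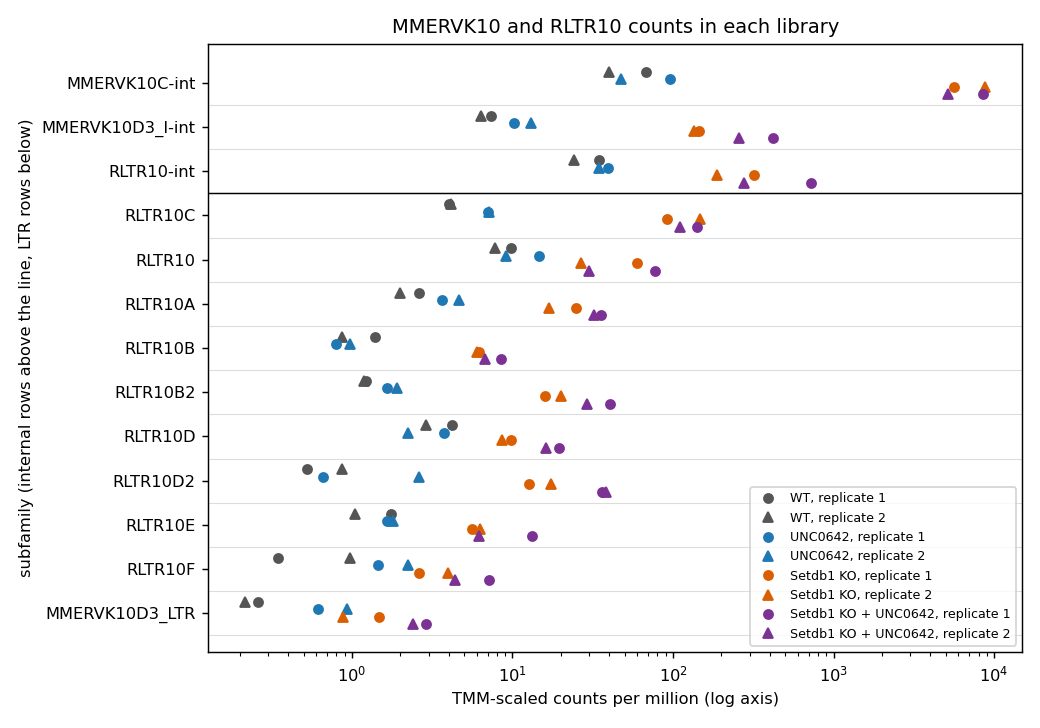
TMM-scaled CPM (log axis) of the 13 subfamilies, internal regions above the line and LTRs below, in each of the 8 libraries; color marks the condition and shape the replicate. Every Setdb1 KO library and every UNC0642-treated Setdb1 KO library lies to the right of both WT libraries in all 13 subfamilies, and MMERVK10C-int moves from 67.5 and 39.8 to 5652 and 8834 CPM in Setdb1 KO mESCs.

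In all, 7 of the 13 subfamilies rose and none fell in Setdb1 KO mESCs, where 4.94% of all subfamilies and 12.5% of ERVK subfamilies rose. In UNC0642-treated Setdb1 KO mESCs, 11 of 13 rose and none fell, against 12.1% of all subfamilies and 26% of ERVK subfamilies. With the replicate block these counts were 10 of 13 and 13 of 13, where 20% and 37.7% of all subfamilies rose. Of ERVK subfamilies, 34.8% and 60.4% rose with the block. The groups did not overlap with WT in 13 of 13 subfamilies in either condition, which also held for 52.7% and 62% of all subfamilies. The median log2 fold change over WT in Setdb1 KO mESCs was 3.12 over the 13 subfamilies, 4.35 over the 3 internal regions and 2.38 over the 10 LTRs, beside 2.52 over 25 IAP, 2.94 over 5 ETn/MusD, 1.21 over 230 other ERVK and 0.96 over all 932 subfamilies. With both treatments the median was 3.89 over the 13 subfamilies, 5.62 over the 3 internal regions and 3.25 over the 10 LTRs. It was 3.29 over IAP, 2.70 over ETn/MusD, 1.38 over other ERVK and 1.11 over all subfamilies. Members share reads and proviruses and are no independent replicates.

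With 2 libraries per condition these calls leaned on both WT libraries. Without WT replicate 1 or without WT replicate 2, 0 of the 7 calls of Setdb1 KO mESCs passed (adjusted p between 0.0990 and 0.276, and between 0.0860 and 0.403), with log2 fold changes that moved by at most 0.43 and stayed at or above 2.88. Without Setdb1 KO replicate 1, RLTR10-int, RLTR10A and RLTR10D2 were lost, and without Setdb1 KO replicate 2 RLTR10D2 alone (highest adjusted p = 0.161 and 0.0662). Of the 11 calls of UNC0642-treated Setdb1 KO mESCs, 0 passed without WT replicate 1 (adjusted p from 0.0517 to 0.180) and 3 without WT replicate 2, these being MMERVK10D3_I-int, RLTR10B2 and RLTR10C, and between 7 and 9 passed without any 1 of the other libraries. The calls lost in those last fits were among MMERVK10D3_LTR, RLTR10B, RLTR10D and RLTR10E.

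UNC0642 alone left MMERVK10C-int near its WT level. It was at 96.3 and 47.4 CPM in UNC0642-treated mESCs against 67.5 and 39.8 CPM in WT, ranges that overlap, with a log2 fold change of 0.42 ± 0.60. RLTR10-int was at 39.5 and 34.5 CPM (0.33 ± 0.53) and RLTR10C at 7.05 and 7.12 CPM (0.80 ± 0.40). MMERVK10D3_I-int was at 10.2 and 13.1 CPM, above both WT libraries (0.77 ± 0.41).

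None of the 13 subfamilies passed in UNC0642-treated mESCs, as none of all subfamilies did (0% of 932), and DESeq2 and the replicate block (0%) called 0 of 13 as well. At an unadjusted p under 0.05 there were 5 with the block and 1 without it, MMERVK10D3_LTR, with 0.611 and 0.935 CPM and a log2 fold change of 1.70 ± 0.75 (unadjusted p = 0.0494, adjusted p = 1). The fold changes of the others lay between -0.32 (RLTR10B) and 1.41 (RLTR10F), with 11 of 13 subfamilies above 0, as were 784 of the 932 subfamilies. Both treated libraries lay above both WT libraries in 6 of 13 (MMERVK10D3_I-int, MMERVK10D3_LTR, RLTR10A, RLTR10B2, RLTR10C and RLTR10F), which held for 23.2% of all subfamilies.

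No subfamily passed the test of what UNC0642 added to Setdb1 deletion, and the differences varied in size. MMERVK10C-int and RLTR10C had log2 fold changes of UNC0642-treated Setdb1 KO over Setdb1 KO mESCs of -0.07 ± 0.60 and 0.06 ± 0.38, with overlapping groups. At the other end stood RLTR10D2 with 1.31 ± 0.63, MMERVK10D3_I-int with 1.27 ± 0.40, MMERVK10D3_LTR with 1.15 ± 0.67 and RLTR10-int with 0.97 ± 0.53, the last with overlapping groups. By edgeR, 0 of 13 passed and 1 had an unadjusted p under 0.05 (MMERVK10D3_I-int, unadjusted p = 0.0112, adjusted p = 0.775) or, with the block, 6 of 13, no subfamily of all 932 passed (0%), and DESeq2 and the block (0.215% of all subfamilies) gave 0 of 13. Both libraries with UNC0642 were above both without it in 8 of 13 subfamilies and below in 0, beside 12.8% and 5.36% of all subfamilies.

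Counted against each other within a library, MMERVK10D3_I-int had 2.58 and 1.52 counts per 100 MMERVK10C-int counts in Setdb1 KO and 4.85 and 4.95 in Setdb1 KO mESCs with UNC0642. In WT it had 10.8 and 16.0, and in UNC0642-treated mESCs 10.6 and 27.7, which overlap. RLTR10D2 had 13.8 and 11.7 counts per 100 RLTR10C counts in Setdb1 KO and 25.6 and 34.9 in Setdb1 KO mESCs with UNC0642. These pairs were chosen after their values were seen, and 2 libraries per condition allow no exact test below the threshold. The UNC0642 effect was not shown to differ between WT and Setdb1 KO mESCs: the interaction of both treatments lay between -0.74 ± 0.55 (RLTR10C) and 1.18 ± 0.72 (RLTR10D), edgeR, the block and DESeq2 called 0 of 13 (0% of all subfamilies), and 0 had an unadjusted p under 0.05 in edgeR, or 1 with the block.

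Against UNC0642-treated mESCs, 8 of 13 subfamilies were higher in UNC0642-treated Setdb1 KO mESCs (5.36% of all and 15% of ERVK subfamilies). MMERVK10C-int was at 6.58 ± 0.76 (adjusted p = 0.00808) and MMERVK10D3_I-int at 4.85 ± 0.47 (adjusted p = 0.00353) on the log2 scale. With the block it was 11 of 13 (18.5% of all and 34.4% of ERVK subfamilies), with RLTR10, RLTR10D and RLTR10E added (adjusted p = 0.00783, 0.00371 and 0.0230). Without UNC0642 replicate 1, 0 of these 8 calls passed, without UNC0642 replicate 2 there were 2 (MMERVK10D3_I-int and RLTR10D2), and without any 1 of the other libraries between 4 and 7. Setdb1 KO against UNC0642-treated mESCs gave 4 of 13 higher (2.36% of all and 5.49% of ERVK subfamilies), namely MMERVK10C-int, MMERVK10D3_I-int, RLTR10B2 and RLTR10C. The block gave 10 of 13 (11.4% of all and 25.3% of ERVK subfamilies). It added RLTR10-int, RLTR10 and RLTR10A (adjusted p = 0.00366, 0.0215 and 0.00862), and RLTR10B, RLTR10D2 and RLTR10D (adjusted p = 0.0135, 0.00832 and 0.0383). Without either UNC0642 library 0 of these 4 passed, and without either Setdb1 KO library RLTR10B2 did not. All of these comparisons share libraries with those above.

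**Figure D2:**
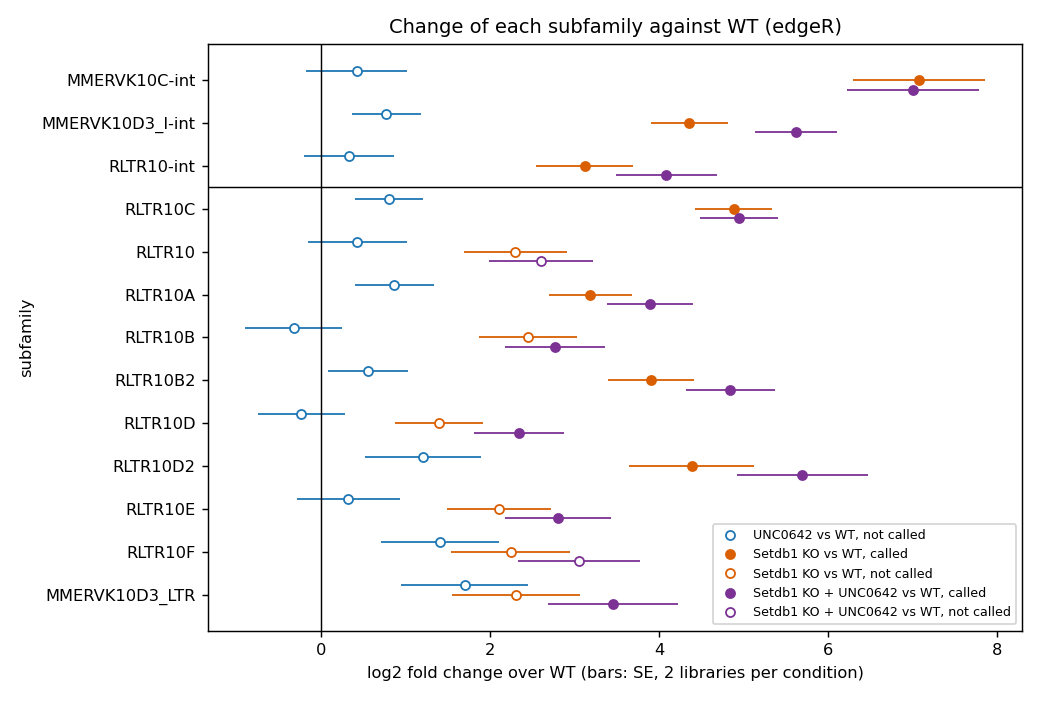
Log2 fold change over WT (horizontal axis, bars are SE) of each subfamily in UNC0642-treated (blue), Setdb1 KO (orange) and UNC0642-treated Setdb1 KO mESCs (purple), with filled points for those past the threshold. No blue point is filled, 7 orange and 11 purple points are, and the orange and purple points of MMERVK10C-int (7.08 and 7.01) and RLTR10C (4.88 and 4.94) lie close together.

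Relative to the internal regions, LTR counts were lower where Setdb1 was deleted in 3 of 4 pairings. The pairings of RLTR10C and of RLTR10 share MMERVK10C-int as the internal region, so they are not independent. Of these LTRs, RLTR10C is the LTR type of MMERVK10C, and RLTR10 was not set against RLTR10-int alone. The other pairing, with RLTR10-int, also counts RLTR10C among its LTRs. For every 100 MMERVK10C-int counts there were 5.93 and 10.3 RLTR10C counts in WT and 7.32 and 15.01 in UNC0642-treated mESCs, but 1.63 and 1.67 in Setdb1 KO and 1.63 and 2.13 in Setdb1 KO mESCs with UNC0642. All 4 libraries with Setdb1 deleted lay below the other 4. The log2 ratio (0.5 added to both counts) was -5.83 ± 0.19 (SD, n = 4) against -3.46 ± 0.58 (n = 4), a difference of -2.38 (two-sided exact permutation test, p = 0.0286, the smallest that 70 arrangements allow, and 0.0714 adjusted over 10 such tests). The adjustment pooled the Setdb1 and the UNC0642 contrast of each ratio. A ratio cannot reach the smallest p in both contrasts, so no Setdb1 difference could have passed after adjustment.

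RLTR10 had 14.6 and 19.6 counts per 100 MMERVK10C-int counts in WT, 15.2 and 19.1 in UNC0642-treated, 1.06 and 0.302 in Setdb1 KO and 0.897 and 0.573 in Setdb1 KO mESCs with UNC0642 (difference -4.74 on the log2 scale). MMERVK10D3_LTR had 3.57 and 3.39 per 100 MMERVK10D3_I-int counts in WT, 5.96 and 7.12 in UNC0642-treated, 1.02 and 0.656 in Setdb1 KO and 0.697 and 0.930 in Setdb1 KO mESCs with UNC0642 (difference -2.63). In both, the libraries with and without Setdb1 did not overlap (exact permutation p = 0.0286, adjusted 0.0714, n = 4 each). The 10 LTRs together had 23.9 to 35.3 counts per 100 internal counts with Setdb1 and 2.78 to 4.81 without it (difference -2.92, same p).

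For RLTR10-int set against the sum of all 9 LTRs named RLTR10, libraries with and without Setdb1 were not separated in this way. The 9 LTRs named RLTR10 had 74.8 and 89.5 counts per 100 RLTR10-int counts in WT, 89.3 and 94.5 in UNC0642-treated, 71.3 and 134 in Setdb1 KO and 52.3 and 98.9 in Setdb1 KO mESCs with UNC0642. The groups overlapped and the log2 difference was -0.05 (exact permutation p = 0.914, n = 4 each). In both conditions with Setdb1 deleted, replicate 2 had the higher ratio. These 9 LTRs include RLTR10C, the LTR type of MMERVK10C. RLTR10C had 46 and 114 counts in WT and 2173 and 2685 in Setdb1 KO mESCs. RLTR10-int had 397 and 673 counts in WT and 7604 and 3438 in Setdb1 KO mESCs. RLTR10 itself had 113 and 216 counts in WT and 1411 and 485 in Setdb1 KO mESCs. The overlap thus holds for the sum with RLTR10C, and the ratio without RLTR10C was not tested. This pairing therefore does not show that RLTR10-int differed from the other internal regions in its ratio to LTRs.

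The counts of MMERVK10D3_LTR per 100 MMERVK10D3_I-int counts were higher in both UNC0642-treated libraries than in both WT libraries (difference 0.78 on the log2 scale), and overlapped where Setdb1 was deleted (-0.034). The 10 LTRs together overlapped between UNC0642-treated and WT mESCs (0.11), and were higher in both UNC0642-treated Setdb1 KO libraries than in both Setdb1 KO libraries (0.42). The other 3 ratios overlapped in either setting. Averaged over all 4 libraries with against the 4 without UNC0642, the log2 differences were -0.14 to 0.37. With labels permuted within Setdb1 state, the exact permutation p lay between 0.167 and 0.778 (adjusted between 0.333 and 0.833, and 0.0556 being the smallest that 36 arrangements allow), so no test in this design could pass. Permutation over all 8 libraries, where the spread includes that between the Setdb1 states, gave p between 0.571 and 0.886.

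Within the family, MMERVK10C-int took a larger share of the counts in all 4 libraries with Setdb1 deleted. It accounted for 49.8% and 43.1% of family counts in WT and 52.9% and 36.9% in UNC0642-treated mESCs, against 89.0% and 93.9% in Setdb1 KO and 84.97% and 86.5% in Setdb1 KO mESCs with UNC0642. RLTR10-int went the other way, with 21.7% to 26.8% in the libraries with Setdb1 and 2.01% to 7.14% in those without. The LTRs took 19.3% to 26.1% and 2.70% to 4.59%.

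**Figure D3:**
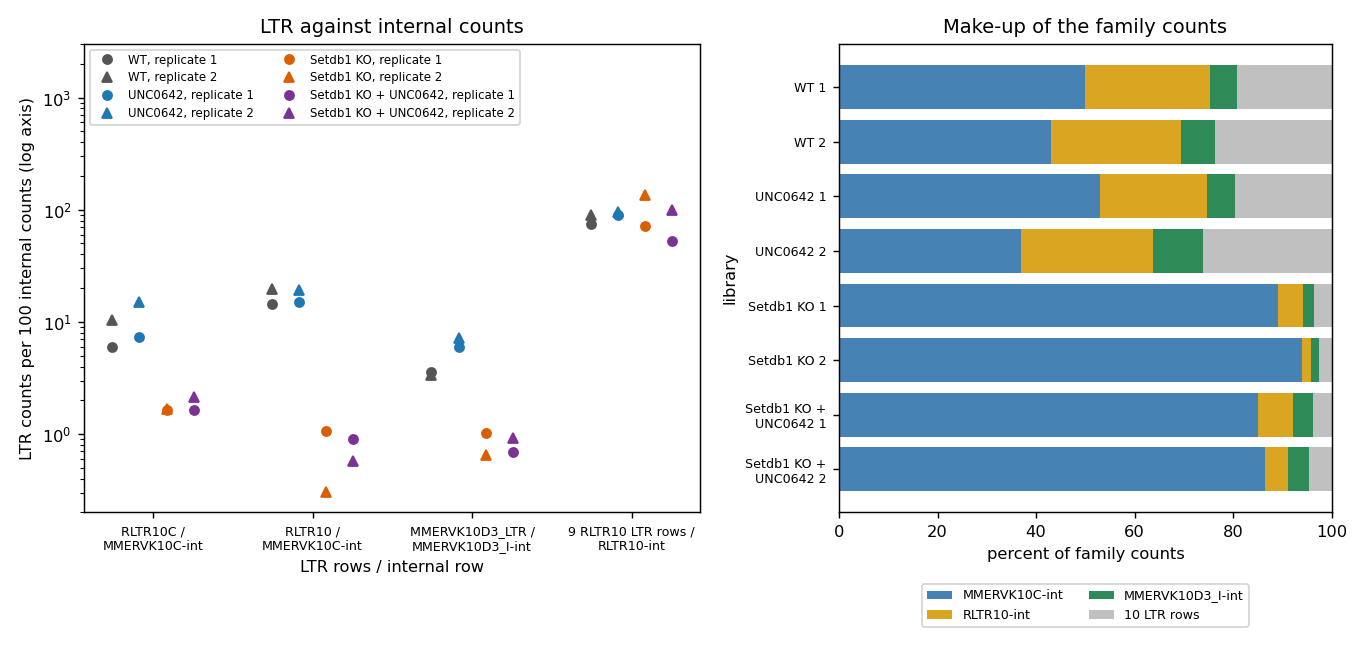
Left, LTR counts per 100 counts of the internal region (log axis) for 4 pairings in each library; right, share of family counts (percent) taken by each internal region and by the 10 LTRs together. The first 3 pairings are lower in the libraries with Setdb1 deleted, RLTR10C over MMERVK10C-int at 1.63 to 2.13 against 5.93 to 15.01. The pairing with RLTR10-int, whose LTRs include RLTR10C, overlaps. MMERVK10C-int takes at least 84.97% of the bar in the 4 libraries with Setdb1 deleted.

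The 13 subfamilies together took 0.0133% and 0.0102% of all counts in WT, 0.0170% and 0.0155% in UNC0642-treated, 0.560% and 1.04% in Setdb1 KO and 0.819% and 0.622% in Setdb1 KO mESCs with UNC0642. Of subfamily counts they took 0.360% and 0.368%, 0.312% and 0.394%, 4.78% and 11.3%, and 4.80% and 5.44% in the same order. The 4 libraries without Setdb1 lay above the other 4 in both shares, by 0.747 and 6.22 percentage points (exact permutation p = 0.0286, n = 4 each, 0.0571 adjusted over 4 tests). As with the LTR ratios, no Setdb1 difference could have passed after this adjustment. Setdb1 KO replicate 2 stood apart from the other libraries in the share of subfamily counts, and without it the difference was 4.65 percentage points.

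Set against other groups of ERVK elements, the family took more counts where Setdb1 was deleted. For every 100 counts of IAP elements, a well studied ERVK family that is still mobile in mice, there were 25.2 and 24.6 MMERVK10 and RLTR10 counts in WT, 32.3 and 34.3 in UNC0642-treated, 93.3 and 101 in Setdb1 KO and 71.9 and 70.7 in Setdb1 KO mESCs with UNC0642. The replicates were close to each other, and the log2 ratio was higher by 1.53 in the libraries without Setdb1. Against ETn/MusD, another mobile ERVK group, there were 5.22 and 5.30 in WT, 5.88 and 8.73 in UNC0642-treated, 49.6 and 86.1 in Setdb1 KO and 54.3 and 66.0 in Setdb1 KO mESCs with UNC0642 (difference 3.35).

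Against the remaining ERVK subfamilies there were 5.06 and 5.45, 5.07 and 5.79, 66.1 and 176, and 84.3 and 84.3 (difference 4.16). Libraries with and without Setdb1 overlapped in none of the 3 ratios (exact permutation p = 0.0286, n = 4 each, 0.0571 adjusted over 6 tests). This does not pass, and no Setdb1 difference could have passed after this adjustment. With UNC0642 the ratio to IAP was higher than in both WT libraries by 0.42 on the log2 scale, and where Setdb1 was deleted it was lower by 0.45, with no overlap in either setting, and the difference between these opposite shifts was not tested. Averaged over both settings, the differences with UNC0642 were -0.015 for IAP, 0.16 for ETn/MusD and -0.16 for other ERVK (exact permutation within Setdb1 state, p = 0.833, 0.556 and 0.944). The family's total is mostly MMERVK10C-int, so these ratios describe that internal region above all.

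**Figure D4:**
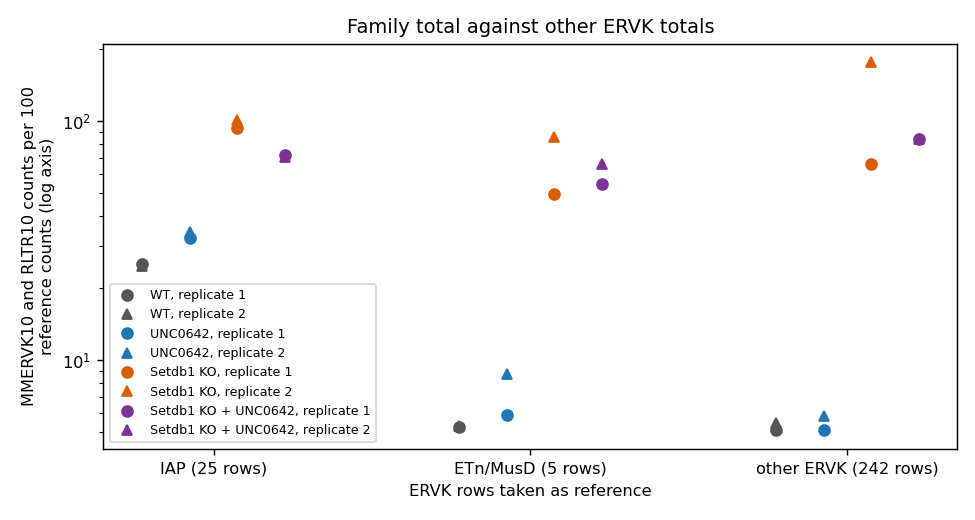
MMERVK10 and RLTR10 counts per 100 counts of IAP, ETn/MusD and other ERVK subfamilies (log axis) in each of the 8 libraries. The 4 libraries with Setdb1 deleted lie above the other 4 in each group, at 70.7 to 101 against 24.6 to 34.3 for IAP, and Setdb1 KO replicate 2 is highest in each, at 176 against other ERVK subfamilies.

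The subfamilies outside the family whose log2 CPM followed MMERVK10C-int most closely over the 8 libraries were IAPEz-int (Pearson r = 0.996), RLTRETN_Mm (0.994), ETnERV-int (0.994), RLTR26D_MM (0.991) and ERVB7_1-LTR_MM (0.991), all of them ERVK. IAPEz-int, the internal region of an IAP type, was at 418 and 281 CPM in WT, 426 and 267 in UNC0642-treated, 6026 and 8234 in Setdb1 KO and 12421 and 7093 in Setdb1 KO mESCs with UNC0642. Within the family r was highest for RLTR10C (0.991) and lowest for MMERVK10D3_LTR (0.798) and RLTR10F (0.800). The libraries fall into those with and those without Setdb1, so any feature that changed strongly with the deletion has a high r, and the values are given as a description.

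The genes closest to MMERVK10C-int by the same measure were Gm19757 (r = 0.997), Prnp (0.995), 4933409K07Rik (0.995), Stfa1 (0.994) and Gm1110 (0.994). Gm19757, a long noncoding RNA gene at chr6:105481266-105492668 (GRCm38, GENCODE M21, minus strand), was at 1.65 and 0.974 CPM in WT, 2.40 and 1.29 in UNC0642-treated, 83.3 and 107 in Setdb1 KO and 199 and 81.2 in Setdb1 KO mESCs with UNC0642. Prnp, which encodes the prion protein and lies at chr2:131909928-131938429 on the plus strand, was at 107 and 75.4, 95.7 and 69.8, 1510 and 2492, and 2989 and 2208 CPM in the same order. Like MMERVK10C-int, both had the lower of the 2 Setdb1 KO values in replicate 1 and the higher of the 2 UNC0642-treated Setdb1 KO values in replicate 1.

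Gm1110 (chr9:26879567-26923111, minus strand) had 0 counts in the 4 libraries with Setdb1 and was at 22.9 and 42.9 CPM in Setdb1 KO and 60.4 and 27.1 CPM in Setdb1 KO mESCs with UNC0642. Stfa1 (chr16:36276951-36285373, plus strand), of the stefin A family of protease inhibitors, also had 0 counts with Setdb1 and did not exceed 0.990 CPM without it. 4933409K07Rik was at 36.6 and 27.6 CPM in WT and 427 and 839 CPM in Setdb1 KO mESCs. Whether MMERVK10C copies lie in or near these genes was not examined here.

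Of 41 listed symbols of genes for retroelement silencing (SETDB1 and its cofactors, HUSH, H3K9 and DNA methyltransferases, histone chaperones), 39 were in the files and all 39 were tested. In edgeR, 0 of 39 passed in UNC0642-treated mESCs, with 0 at an unadjusted p under 0.05 and 0 by DESeq2, and 0 of 39 in Setdb1 KO mESCs (where 1.11% of all features rose), with 5 at an unadjusted p under 0.05 and 2 by DESeq2. In UNC0642-treated Setdb1 KO mESCs, where 3.6% of all features rose, 4 were higher and 2 lower at an unadjusted p under 0.05. DESeq2 called 3 higher and 1 lower there, and in edgeR 1 gene passed. This was 2810474O19Rik, also known as Resf1, which is needed for the repression of retroelements by SETDB1. It was at 126 and 107 CPM in WT, 209 and 143 in UNC0642-treated, 1051 and 432 in Setdb1 KO and 1174 and 602 in Setdb1 KO mESCs with UNC0642. Its log2 fold change over WT was 2.93 ± 0.59 in UNC0642-treated Setdb1 KO mESCs (adjusted p = 0.0274) and 2.67 ± 0.59 in Setdb1 KO mESCs (adjusted p = 0.0821, and 0.00259 with the block).

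With the block, the count in Setdb1 KO mESCs was 3 higher and 1 lower of 39 (3.77% and 0.486% of all features), and with both treatments 5 higher and 2 lower (9.47% and 6.44%). None of the 10 listed restriction factors, which act on the RNA or cDNA of retroelements, passed in edgeR over WT in any condition. At an unadjusted p under 0.05 there were 0 in UNC0642-treated, 1 in Setdb1 KO and 2 in UNC0642-treated Setdb1 KO mESCs, and DESeq2 called 0 in each. The block gave 1 higher and 3 lower in the last of these.

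Markers of 2-cell-like cells, a rare state of mESC cultures, were higher in all 6 treated libraries than in WT. Their summed level (10 markers, all tested) was 10.6 and 34.7 CPM in WT, 899 and 391 in UNC0642-treated, 390 and 191 in Setdb1 KO and 1363 and 816 in Setdb1 KO mESCs with UNC0642. In edgeR, 10 of 10 rose in UNC0642-treated Setdb1 KO mESCs (3.6% of all features) and 1 of 10, Usp17le, in Setdb1 KO mESCs (1.11%). With the block, 7 rose in Setdb1 KO mESCs (3.77% of all features). In UNC0642-treated mESCs 0 of 10 passed (0% of all features), with 10 at an unadjusted p under 0.05. There, 10 were called by DESeq2, whose share over all features is not given here, and 2 with the block (0.166% of all features). MMERVK10C-int was at 96.3 and 47.4 CPM in UNC0642-treated and 5652 and 8834 CPM in Setdb1 KO mESCs. The part of these cells in the results was not tested.

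Markers of other cell types stayed low beside the 9 mESC markers, which summed to 3525 to 6725 CPM. The 9 fibroblast markers summed to 5.82 to 26.7 CPM, the 7 primitive endoderm markers to 10.7 to 84.6 CPM and the 7 trophectoderm markers to 6.78 to 41.7 CPM over the 8 libraries. Of these lists, none of the markers was at 0 in all libraries.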

How the data were processed

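RNA-seq reads were trimmed with Trim Galore (0.3.7), mapped to GRCm38 (mm10) with TopHat and counted with TEtranscripts, which shares multi-mapped reads among subfamilies. The values deposited by the authors are raw counts per gene and per subfamily without normalization. The strand setting and the annotation release are not given in the sources used here.

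Counts were filtered with filterByExpr (minimum count 10, minimum total 15), which kept 15313 genes and 932 subfamilies, normalized by TMM over both and tested with edgeR 4.0.16 in R 4.3.3. SEs were derived from the F statistic and the size of each log2 fold change (prior count 0.125). DESeq2 1.42.0 was used as an alternative. Ratios and shares within a library were compared by two-sided exact permutation tests over 8 libraries in Python 3.11.15 with scipy 1.17.1, adjusted within each kind of ratio. IAP subfamilies were those of ERVK named IAP, and ETn/MusD those named ETn, RLTRETN or MusD. Scripts were tested on simulated data.

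Replicate numbers are shared by all conditions, and the labels do not say what they mark. The deviations of replicates correlated across 15313 genes in all 6 pairs of conditions (r between 0.285 and 0.663, median 0.587), so the numbers were taken to pair the libraries, and values from a blocked fit are given where they change a call. Nothing says that replicates are separate cultures beyond the term biological replicate.

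All 13 subfamilies are named. Also named are the 5 subfamilies and 5 genes with the highest Pearson r of log2 CPM (prior count 2) to the internal region of highest mean CPM, Setdb1 and silencing or restriction genes past the threshold. The subfamilies and gene lists were chosen with earlier results of these data known. Sequences of the subfamilies were not analysed here. Gene positions were matched by symbol to GENCODE M21.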

Additional observations from a re-analysis of the deposited data

Results flagged for a closer look

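In the 4 libraries with Setdb1 deleted, the log2 ratio of RLTR10C to MMERVK10C-int was -5.56 in UNC0642-treated Setdb1 KO replicate 2, far from the other 3 libraries, which lay close together (the gap was 0.898 of the range, above Dixon's 95% value for 4 samples). In the same 4 libraries, the share of subfamily counts taken by the 13 subfamilies was 11.3% in Setdb1 KO replicate 2, between 4.78% and 5.44% in the others (gap 0.898 of the range). There were 20 such groups of 4 libraries tested, and chance flags about 1 in 20. Of all subfamily counts in Setdb1 KO replicate 2, MMERVK10C-int took 10.6%.

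The log2 ratio of the 13 subfamilies to IAP elements was higher with UNC0642 in cells with Setdb1 and lower with UNC0642 where Setdb1 was deleted. With Setdb1, the mean of 2 libraries was -1.59 under UNC0642 and -2.003 in WT. Where Setdb1 was deleted, it was -0.49 under UNC0642 and -0.041 without it. In each case both libraries with UNC0642 lay beyond both without it, and the effects of 0.42 and -0.45 were apart by -0.86. This difference was not tested.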

How the results depend on the processing

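Directions and calls of the 7 edgeR comparisons were recomputed under DESeq2 (all 8 libraries and, except for the interaction, the 4 compared), the replicate block, RLE and total counts normalization, TMM factors from genes only, no expression filter, a prior count of 2, and without each library in turn. The permutation tests were repeated with labels permuted within replicate number or within the other treatment, and without each library in turn. In the edgeR fits of the last kind, an arm left with 1 library is assumed to vary like the others. With total counts normalization, which moved the median of all features by -0.18 in UNC0642-treated Setdb1 KO over WT and by -0.23 over UNC0642-treated mESCs, 7 of 13 subfamilies in place of 11, and 5 in place of 8, passed. For Setdb1 KO against UNC0642-treated mESCs, the count was 8 by either DESeq2 fit and 10 with the replicate block, in place of 4. Elsewhere the block moved no count of calls among the 13 subfamilies by over 1.5 times (over all subfamilies it did), and in both restricted permutations the 9 differences that had reached the smallest p did so again (p = 0.0556 of 36 arrangements). The cause of these changes was not tested.

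Without each library in turn, the calls for both conditions with Setdb1 deleted varied strongly, as given above. MMERVK10C-int over WT lay between 6.70 and 7.51 in Setdb1 KO and between 6.59 and 7.42 in UNC0642-treated Setdb1 KO mESCs, on the log2 scale. Over UNC0642-treated mESCs it lay between 6.22 and 7.25 in Setdb1 KO and between 6.17 and 7.17 in UNC0642-treated Setdb1 KO mESCs. Counts of 0 stayed 0 in UNC0642 over WT, UNC0642-treated Setdb1 KO over Setdb1 KO and the interaction. Directions turned only among values that did not pass. With total counts normalization RLTR10C in UNC0642-treated Setdb1 KO over Setdb1 KO became -0.10 and the interaction of RLTR10D2 -0.14. Leaving out libraries gave, for UNC0642 over WT, -0.17 to 0.85 in MMERVK10C-int, -0.62 to 0.036 in RLTR10B, -0.15 to 1.87 in RLTR10D2 and -0.65 to 0.073 in RLTR10D. For UNC0642-treated Setdb1 KO over Setdb1 KO it gave -0.49 to 0.30 in MMERVK10C-int, -0.55 to 0.99 in RLTR10 and -0.24 to 0.46 in RLTR10C. The interaction ranged from -0.94 to 0.093 in MMERVK10C-int, -0.23 to 1.21 in RLTR10-int, -0.98 to 0.56 in RLTR10, -0.40 to 0.12 in RLTR10A, -0.57 to 1.49 in RLTR10D2 and -0.28 to 0.87 in RLTR10E.

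For the libraries with against without UNC0642, the log2 LTR to internal ratios ranged from -0.29 to 0.80 (RLTR10C over MMERVK10C-int), -0.94 to 1.07 (RLTR10 over MMERVK10C-int), -0.17 to 0.95 (MMERVK10D3), -0.25 to 0.074 (RLTR10 LTRs over RLTR10-int) and -0.32 to 0.84 (all). The family share ranged from -0.19 to 0.17 percentage points of all counts and -2.75 to 0.90 of subfamily counts, and the family against IAP, ETn/MusD and other ERVK totals from -0.35 to 0.33, -0.45 to 0.90 and -0.90 to 0.81. With against without Setdb1, the RLTR10 LTRs over RLTR10-int ranged from -0.27 to 0.18. Depth limits MMERVK10D3_LTR, RLTR10D2 and RLTR10F, with 3 to 27 counts in WT libraries. It also limits RLTR10B2, RLTR10B and RLTR10E, with 14 and 33, 16 and 24, and 20 and 29 counts in WT.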
